A study of Mus musculus with 16 samples.

Results

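The NEDD4 family of ubiquitin ligases was followed through cDC progenitors of mice with and without mammary tumors. The members were 9 genes, chosen by name: the 7 ligases Nedd4, Nedd4l, Itch, Wwp1, Wwp2, Smurf1 and Smurf2, and the 2 adaptors Ndfip1 and Ndfip2. They were taken up because the Nedd4 signal was lower with tumor by more in CDPs than in MDPs. Nedd4 was therefore chosen on all 4 groups, and its values are given as a description with no test. The 9 genes had 14 probes, among 39429 probes for 28631 gene names on the array.

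Ubiquitin ligases of this family carry a HECT domain, in which a catalytic cysteine takes up ubiquitin from an E2 enzyme and passes it to a lysine of the substrate. WW domains bind short proline and tyrosine motifs in substrates or in adaptors such as the Ndfip membrane proteins, which also relieve the ligases of autoinhibition. In blood cells the family is best known for control of receptor turnover and T-cell activation, where mice that lack Itch or Ndfip1 develop inflammatory disease.

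The cells were macrophage-dendritic cell progenitors (MDPs), which can still give rise to monocytes, and their more restricted descendants, common dendritic cell progenitors (CDPs). Both were sorted from BM of C57/Bl6 females and profiled on one-color arrays, with 4 samples each of MDPs and CDPs from tumor-bearing mice and 4 each from tumor-free mice. Ages are not given in the labels. Tumor-bearing mice had orthotopic PyMT-B6 tumors, made with 1 cell line from the MMTV-PyMT model, grown in the mammary fat to 1.5 cm. The study's legend gives 2 mice per sample, and the labels number the samples of each group 2 to 5. Within a group the samples are separate pools, and the p-values rest only on the spread among such pools. Whether same-numbered MDPs and CDPs came from the same mice was not settled. In the limma fit that spread is estimated within all 4 groups together and moderated over all tested probes. The exact permutation test uses only the groups compared.

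Between 58.8% and 71.5% of probes were well above background on an array, 0 were saturated, and replicates correlated at r = 0.904 to 0.977 over the tested probes. The defining progenitor genes Kit, Flt3, Csf1r and Cx3cr1 were above background on all 4 arrays of every group. Of the 14 member probes, 13 passed the filter for testing, which asked that some group have at least 3 of its 4 arrays well above background. The other was the dimmer Nedd4l probe, above background on 1 array of tumor-free CDPs and on 1 array of tumor-bearing CDPs. In bulk samples of this kind, fewer cells of a type and less RNA per cell cannot be told apart.

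Each value below rests on a 60-base probe, and those on which the results turn are shown here, 5′ to 3′ as printed in the array file. Nedd4 had 1 probe, at chr9:72597306-72597365 on the plus strand of mouse build mm9. Smurf1, the only member with a called difference, also had 1 probe, which the file leaves unmapped, and its sequence is shown whole for that call. Its single reading frame without a stop starts at base 1 and holds 1 cysteine codon, given in capitals at bases 52 to 54. Of the others only the first 30 of 60 bases are shown. The brighter Wwp1 probe was placed at chr4:19536837-19536896 and the dimmer at chr2:24448892-24448951, both on the minus strand, so that the file puts the second on another chromosome than the first.
Nedd4: tgtggagtcacattcacgaaacacgaagac
Smurf1: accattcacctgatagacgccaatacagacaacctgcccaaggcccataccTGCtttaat
Wwp1 probe 1: ctcagtcacctacctgtctttgggaaagaa
Wwp1 probe 2: tggtgacagaagaaaacaaagatgaatgta

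Nedd4 gives the family its name and is a ligase for growth factor receptors and ion channels, among other substrates. Values are log2 processed signal minus the 75th percentile of the array, called normalized signal here, and arrays are listed from replicate 2 to replicate 5. In tumor-free MDPs the normalized Nedd4 signal was 2.65, 2.41, 2.20 and 2.52, and in MDPs of tumor-bearing mice it was 1.58, 1.49, 1.57 and 1.83. In tumor-free CDPs it was 1.83, 1.71, 1.20 and 1.35. In CDPs of tumor-bearing mice it was -1.61, -2.84, -1.90 and -1.61, lower than on any of the other 12 arrays. The probe remained well above background on all 16 arrays, so even the lowest values were measured and not a floor.

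The order of the Nedd4 group means was tumor-free MDPs at 2.45 ± 0.19 (SD, n = 4), tumor-bearing MDPs at 1.62 ± 0.15, tumor-free CDPs at 1.52 ± 0.30 and tumor-bearing CDPs at -1.99 ± 0.59. Tumor-bearing MDPs and tumor-free CDPs, neighbors in this order, overlapped, while the first and the last group overlapped with no other. With tumor, the log2 difference was -3.51 in CDPs, an 11.4-fold lower signal, and -0.83 in MDPs, a 1.78-fold lower signal. The difference between these, on which Nedd4 was chosen, was -2.68. From MDPs to CDPs the log2 difference was -0.92 in tumor-free mice and -3.61 in tumor-bearing mice. These comparisons share arrays, so they are not independent of each other.

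**Figure D1:**
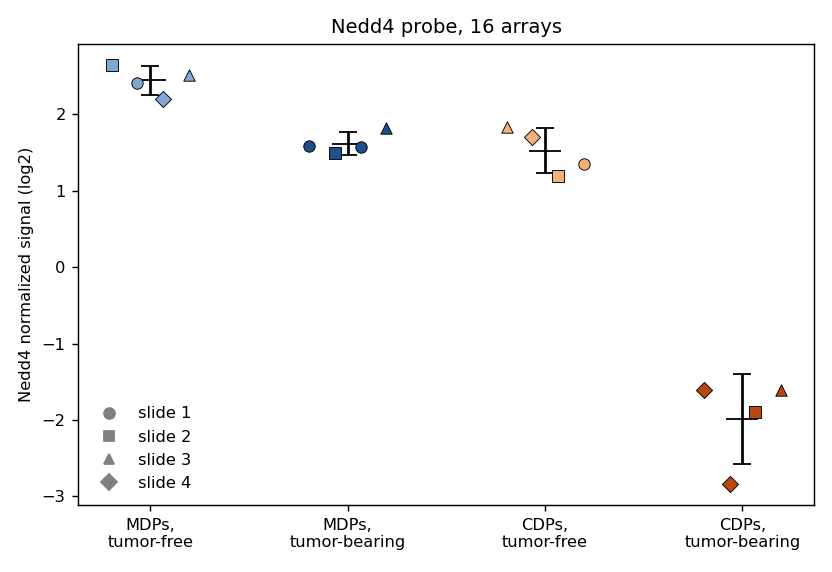
Normalized signal of the Nedd4 probe (log2, y axis) on the 16 arrays by group, with the marker shape giving the slide and bars the mean and SD of 4 arrays. The 4 arrays of tumor-bearing CDPs sit between -2.84 and -1.61, and all others at 1.20 or above.

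The 16 arrays lay on 4 slides. Each tumor-free group had 1 array on every slide, tumor-bearing MDPs had 2 on slide 1 and none on slide 4, and tumor-bearing CDPs had 2 on slide 4 and none on slide 1. Within slides the Nedd4 difference with tumor ranged from -3.93 to -3.10 in CDPs over 3 slides and from -1.16 to -0.69 in MDPs over 3 slides. On slides 2 and 3, which held all 4 groups, the difference between CDPs and MDPs was -1.94 and -2.75. The sign of the Nedd4 difference was the same on every slide that allowed a comparison, and on both slides with all groups it was larger in CDPs. Nedd4 was chosen on these same arrays, so the slide values describe them and lend no separate support.

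Other genes differed along with Nedd4 in tumor-bearing CDPs, and they are given here by list. Over all tested probes, 0.802% were called higher and 0.999% lower with tumor in CDPs, and 0.0656% were called in MDPs. The growth factor receptor Kit, part of the definition of both progenitors, was called lower in CDPs (log2 difference -1.34, limma adjusted p = 0.00427), and of the 4 genes of that list it was the only one called. Of 9 granulocyte genes 2 were called higher, Lcn2 and Elane, and the summed linear signal of the list was 36.7 to 52.7 in tumor-free and 64.6 to 98.7 in tumor-bearing CDPs. That sum rests mostly on the brightest genes, Mpo, Elane and Ctsg. Camp, Ltf and Ngp differed the other way in CDPs, by -0.65, -0.45 and -0.25, and were not called. The remaining granulocyte genes differed upwards. Of 5 cDC genes 1 was called lower, Cd209a, with a summed signal of 5.28 to 6.98 in tumor-free and 0.438 to 1.86 in tumor-bearing CDPs, and Xcr1 was not above background on any array. Of 3 pDC genes Bst2 was called lower, but the summed signal of that list was 12.9 to 29.7 in tumor-free and 19.5 to 40.3 in tumor-bearing CDPs, and the brightest pDC gene, Siglech, differed by 0.37 and was not called. Of 5 T and NK cell genes Klrd1 was called lower, Cd3e differed by 0.73 and was not called, and the summed signals overlapped between the groups. In MDPs, Lcn2 was called higher and Cd209a lower, with summed signals of 67.6 to 103 and 74.0 to 123 for the granulocyte list and of 0.769 to 0.904 and 0.101 to 0.368 for the cDC list, tumor-free before tumor-bearing. Camp, Ngp and Ltf differed downwards in MDPs too, by -1.56, -0.86 and -0.20, and were not called, while the remaining granulocyte genes differed upwards. No gene was called in either cell type from the lists of monocytes, B cells, erythroid cells, megakaryocytes, mast cells and basophils, or mammary tumor. The part of these cell types in the Nedd4 values was not tested.

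For the 8 other members the question was whether any moved with tumor as Nedd4 did. Of their 12 tested probes, 0 were called in CDPs, 0 in MDPs and 0 for the difference between the 2 changes, where a call required an FDR under 0.05 in limma, adjusted by Benjamini-Hochberg, together with more than a 1.5-fold difference. At an unadjusted p under 0.05 the count was also 0 in each of the 3 comparisons, against 3753, 2853 and 1106 of all tested probes. Over all 27433 tested probes, 1.8% were called in CDPs (0.802% higher and 0.999% lower), 0.0656% in MDPs and 0.0146% for the difference, so that among 12 probes a count of 0 lies near the background share. In CDPs the log2 differences of the 12 probes ran from -0.51 to 0.53 with a median of 0.07, against a median of 0.08 over all tested probes. In MDPs they ran from -1.03 to 0.18 with a median of -0.05, against -0.12 over all. The median of all probes in MDPs was 0.00 after quantile normalization, and the member median was then 0.05, so the sign of the small MDP median depends on the scaling.

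Nedd4l, the nearest paralog of Nedd4 and known for control of the epithelial sodium channel, was the only other member whose groups did not overlap with tumor in CDPs. Its brighter probe read -0.45, -0.51, -0.39 and -0.35 in tumor-free CDPs and -0.82, -1.17, -1.22 and -0.53 in tumor-bearing CDPs. The log2 difference was -0.51 (95% interval -1.04 to 0.02), with an exact two-sided permutation p of 0.0286, the smallest that 4 against 4 arrays can give, and an adjusted p of 0.393. Of all probes, 11.1% had groups that did not overlap in this comparison and 5.22% had such groups in MDPs, where no other member did. In MDPs the Nedd4l difference was -0.08 (-0.61 to 0.45), and the groups overlapped.

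Itch, a ligase of T-cell tolerance that acts on JunB, had 1 probe at chr2:155052476-155052535. It differed with tumor by -0.49 in CDPs (95% interval -1.21 to 0.23) and by 0.18 in MDPs (-0.54 to 0.91), and the groups overlapped in both. Within slides it differed by -0.03, -0.29 and -0.36 in CDPs (slides 2 to 4) and by 0.18, -0.35 and -0.21 in MDPs (slides 1 to 3). The difference between the changes was -0.67, and -0.10 with slide as a block, so the opposite pooled signs did not hold within slides. Wwp2, a ligase for OCT4, had 1 probe at chr8:110081041-110081100. All 16 arrays lay between 1.01 and 1.74, with differences of 0.17 in CDPs (-0.17 to 0.51) and 0.15 in MDPs (-0.19 to 0.49). The intervals of Wwp2 and Itch leave out a decrease as large as that of Nedd4 in either cell type. So do those of Nedd4l, Smurf1, Smurf2 and Ndfip1.

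The Smurf ligases regulate TGF-β and BMP signaling through Smad proteins and their receptors. Smurf1 differed with tumor by 0.09 in CDPs (95% interval -0.27 to 0.44) and by -0.23 in MDPs (-0.59 to 0.12). Smurf2 had 3 probes within chr11:106682200-106684000, and in CDPs their differences were 0.05, -0.29 and -0.44, from the brightest to the dimmest. The 3 Smurf2 probes correlated with each other over the 16 arrays at r = -0.14 to 0.48, so they did not move as one. None of these differences was called.

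Wwp1, a ligase for Klf transcription factors and for TGF-β receptor complexes, had a probe pair that correlated at r = 0.78 over the 16 arrays despite the different placements. In CDPs its differences with tumor were 0.53 and 0.43, and in MDPs -0.53 and -0.39, with overlap in each. The difference between the 2 changes was 1.06 for the brighter probe (95% interval -0.27 to 2.39) and 0.81 for the dimmer (-0.10 to 1.72). Both had a limma adjusted p of 0.748, so the opposite signs in CDPs and MDPs were not called as a difference. On slides 2 and 3, which held all 4 groups, each probe had the same sign in both cell types. The brighter probe differed by -0.75 in CDPs and -0.24 in MDPs on slide 2, and by 0.33 and 0.72 on slide 3. The dimmer probe differed by 0.53 and 0.06, then by -0.41 and -0.24. When slide was a block, the difference between the changes for the brighter probe was 0.34 (limma adjusted p = 0.979). For the dimmer probe the sign in MDPs depended on the scaling, with 0.09 after quantile normalization and 0.08 in the deposited table.

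**Figure D2:**
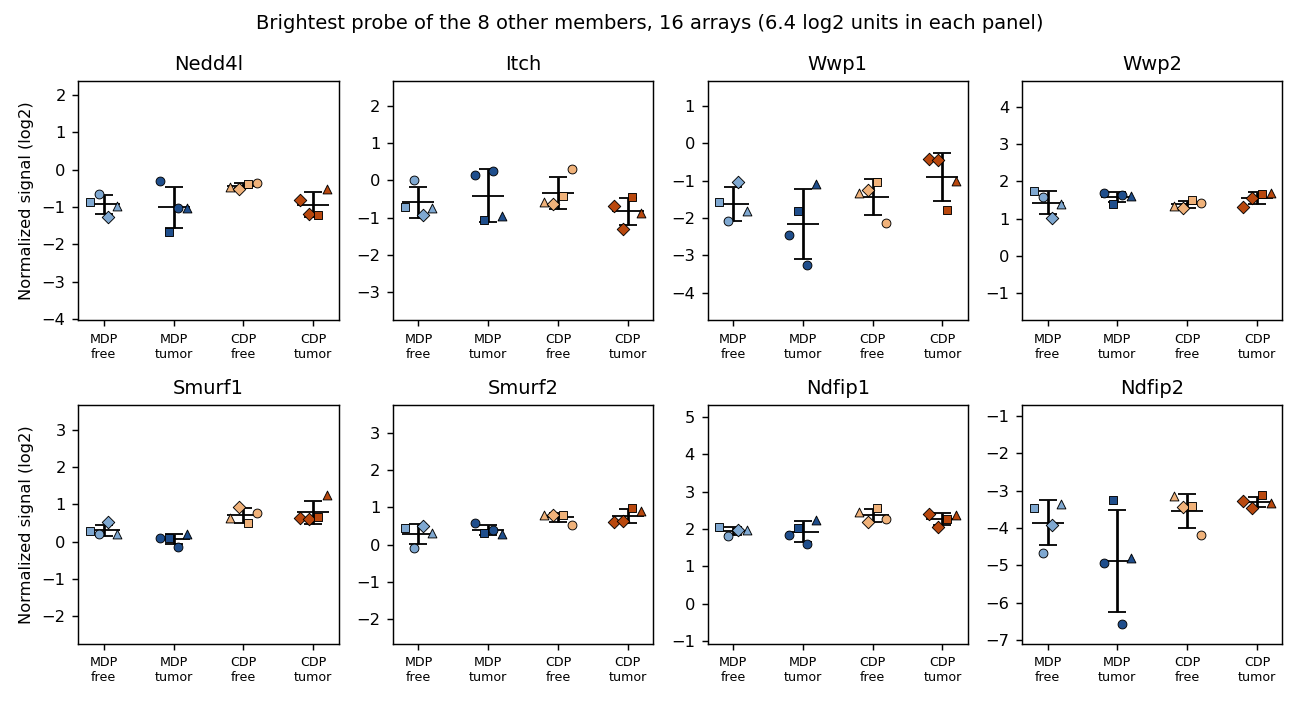
Normalized signal (log2, y axis) of the brightest probe of each of the 8 other members on the 16 arrays by group, with the marker shape giving the slide (circle 1, square 2, triangle 3, diamond 4) and bars the mean and SD of 4 arrays. Levels are not comparable between panels; no panel shows the separation of tumor-bearing CDPs seen for Nedd4, and in Ndfip2 the lowest array is a tumor-bearing MDP sample at -6.57.

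The adaptors Ndfip1 and Ndfip2 recruit and activate the ligases at Golgi and endosomal membranes. Ndfip1 had 2 probes, and with tumor they differed by -0.09 (95% interval -0.42 to 0.24) and 0.41 (-0.07 to 0.90) in CDPs and by -0.02 and 0.07 in MDPs. Ndfip2 had 1 dim probe, at chr14:105708027-105708086. In MDPs it read -3.47, -4.67, -3.91 and -3.35 in tumor-free mice and -4.93, -3.24, -6.57 and -4.80 in tumor-bearing mice, where replicate 4 was not well above background. The Ndfip2 difference in MDPs was -1.03 (-2.14 to 0.08), the groups overlapped, and it was not called (limma adjusted p = 0.507). Without replicate 4 of the tumor-bearing MDPs the difference was -0.47, and after quantile normalization it was -0.45.

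**Figure D3:**
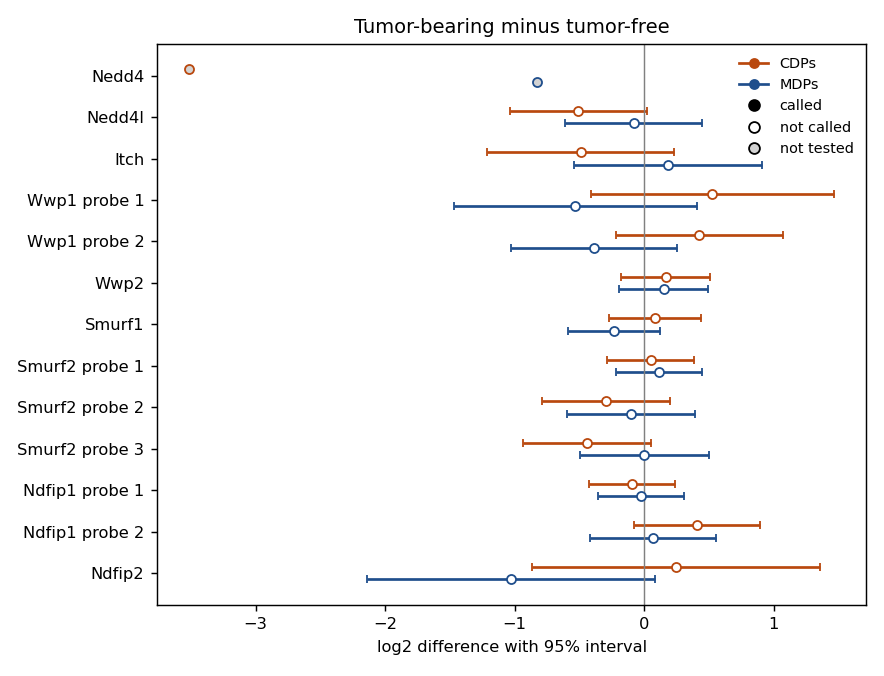
Log2 difference between tumor-bearing and tumor-free mice (x axis) for the 13 tested member probes in CDPs and in MDPs, with 95% intervals from the limma fit for all but Nedd4, which was not tested. Nedd4 in CDPs lies at -3.51, and every other point lies between -1.03 and 0.53.

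The arrays also show how the family stands at the step from MDPs to CDPs. In tumor-free mice, 0 of the 12 probes of other members were called in limma, 3 had an unadjusted p under 0.05, and 6.1% of all tested probes were called (2.94% higher and 3.16% lower in CDPs). In tumor-bearing mice 1 of the 12 was called, 7 had an unadjusted p under 0.05, and 7.26% of all were called (3.56% higher and 3.71% lower). Of all 27433 tested probes, 4692 without tumor and 7631 with tumor had an unadjusted limma p under 0.05. When slide was a block, 5 of the 12 probes without tumor and 3 with tumor did. Of the 12 probes, 11 had a difference above 0 without tumor and 8 with tumor, with medians of 0.28 and 0.36 against 0.02 and 0.19 over all probes. After quantile normalization the median over all probes in tumor-bearing mice was near 0 (-0.0034) and that of the 12 probes was 0.35. The comparisons share arrays with those for tumor, and Nedd4, with its lower signal in CDPs, was not counted.

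Smurf1 was the called member. Its normalized signal was 0.10, 0.09, -0.13 and 0.21 in tumor-bearing MDPs and 0.64, 0.60, 0.66 and 1.24 in tumor-bearing CDPs. All 4 CDP arrays were above all 4 MDP arrays, with replicate 5 of the CDPs well above the rest. The log2 difference was 0.72 (95% interval 0.36 to 1.07, a 1.64-fold higher signal), with an adjusted p of 0.0175 in limma and an exact permutation p of 0.0286. Within slides 2 and 3, the only ones with both groups, it was 0.57 and 1.03. The call was lost without replicate 4 of the tumor-bearing MDPs (0.65, adjusted p = 0.0583), without replicate 5 of the tumor-bearing CDPs (0.57, adjusted p = 0.0471, under the fold limit), and when only the 2 groups compared entered the fit (adjusted p = 0.103).

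In tumor-free mice Smurf1 was 0.29, 0.21, 0.51 and 0.20 in MDPs and 0.62, 0.94, 0.49 and 0.76 in CDPs. The groups overlapped by 1 array of each, and the log2 difference of 0.40 (95% interval 0.04 to 0.75) was not called (limma adjusted p = 0.218). That this step is larger with tumor was not shown: the difference between the steps, which equals the difference of the tumor changes, was 0.32 (-0.18 to 0.82; adjusted p = 0.748).

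The brightest Smurf2 probe had higher values in CDPs at both tumor states, with no overlap in either. In tumor-free mice it read 0.45, -0.10, 0.49 and 0.30 in MDPs and 0.80, 0.80, 0.78 and 0.53 in CDPs, a log2 difference of 0.44 (95% interval 0.11 to 0.78). The adjusted p was 0.125 in limma, and the exact permutation p was 0.0286. In tumor-bearing mice the difference was 0.38 (95% interval 0.04 to 0.71, limma adjusted p = 0.147). The groups barely separated there, with the highest MDP array at 0.587 and the lowest CDP array at 0.594. The other 2 Smurf2 probes differed by 0.16 and 0.18 without tumor and by -0.03 and -0.26 with tumor, so the probes disagreed in sign there. The mean over the Smurf2 probes differed by 0.03 with tumor (limma adjusted p = 0.908).

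For Ndfip1 no single probe was separated in both tumor states. In tumor-free mice its brighter probe read 2.06, 1.81, 1.96 and 1.96 in MDPs and 2.44, 2.20, 2.56 and 2.26 in CDPs, with no overlap and a difference of 0.42 (95% interval 0.08 to 0.75; limma adjusted p = 0.152). In tumor-bearing mice that probe overlapped, with a difference of 0.35 (adjusted p = 0.168). Its dimmer probe overlapped in tumor-free mice, with a difference of 0.34 (adjusted p = 0.555). The dimmer probe in tumor-bearing mice read 0.53, 0.80, 0.14 and 0.66 in MDPs and 1.54, 1.23, 0.85 and 1.27 in CDPs. There the groups did not overlap, and the difference was 0.69 (95% interval 0.20 to 1.17, limma adjusted p = 0.0804). That difference was 0.35 with slide as a block (limma adjusted p = 0.251). None of these passed the call. In all, 3 of the 12 probes did not overlap in tumor-free mice (Nedd4l, Smurf2 and Ndfip1) and 3 in tumor-bearing mice (Smurf1, Smurf2 and Ndfip1), against 13.3% and 14.1% of all probes.

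The largest differences of the step among other members belonged to the dim Ndfip2 probe and to the Wwp1 probes, and they were not called. In tumor-bearing mice, Ndfip2 was higher in CDPs by 1.59 (95% interval 0.47 to 2.70; limma adjusted p = 0.0786), Wwp1 probe 1 by 1.24 (0.30 to 2.18; adjusted p = 0.10) and Wwp1 probe 2 by 1.03 (0.38 to 1.67; adjusted p = 0.0521). Each had overlapping groups. Within the 2 slides that held both groups, Wwp1 probe 1 differed by only 0.02 and 0.07, Wwp1 probe 2 by 0.76 and 0.18, and Ndfip2 by 0.12 and 1.46. Slide was not balanced between these groups. Wwp1 probe 1 stood at 0.52 with slide as a block (limma adjusted p = 0.400). The cause of the larger pooled values was not tested. Nedd4l, Itch and Wwp2 differed by 0.08, -0.42 and -0.02 in the same comparison, but within these slides all differed upwards, Nedd4l by 0.46 and 0.49, Itch by 0.61 and 0.08 and Wwp2 by 0.27 and 0.09. With slide as a block Itch stood at 0.15, so its pooled direction did not hold within slides.

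**Figure D4:**
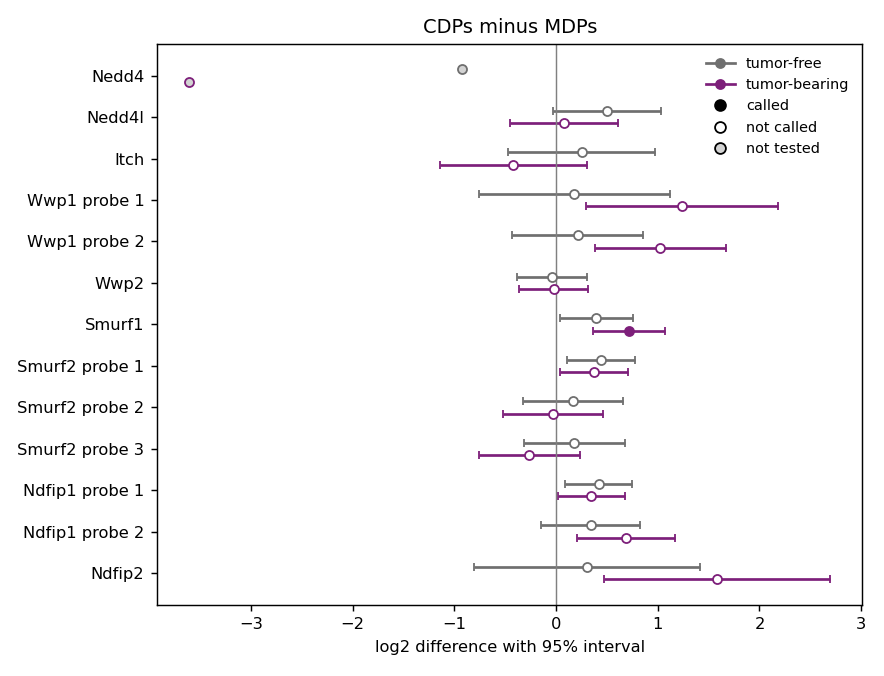
Log2 difference between CDPs and MDPs (x axis) for the 13 tested member probes in tumor-free and tumor-bearing mice, with 95% intervals from the limma fit for all but Nedd4, which was not tested. The filled point is Smurf1 in tumor-bearing mice at 0.72; Nedd4 lies at -0.92 and -3.61, and other members between -0.42 and 1.59.

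Across the 16 arrays the brightest probes of the other members correlated with Nedd4, after subtraction of slide means, at r = -0.58 (Wwp2) to 0.10 (Itch). Over the 20523 probes tested under a RefSeq symbol with a value on every array, the 5 symbols most like Nedd4 were Ptprcap (r = 0.979), a CD45-associated protein, Sh2d5 (0.967), the mitochondrial adenylate kinase Ak3 (0.963), the zinc finger gene Zfp219 (0.953) and Ttyh2 (0.950). The 16 points share 4 groups and 4 slides, so these values describe a shared pattern over groups and carry no test. For Ptprcap the group means were 2.10 ± 0.08 and 1.85 ± 0.10 in tumor-free and tumor-bearing MDPs and 1.80 ± 0.20 and 0.50 ± 0.36 in the CDPs (SD, n = 4). For Ak3 they were 2.13, 2.09, 1.99 and 1.30 in the same order, and without slide centering its r was 0.813.

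**Figure D5:**
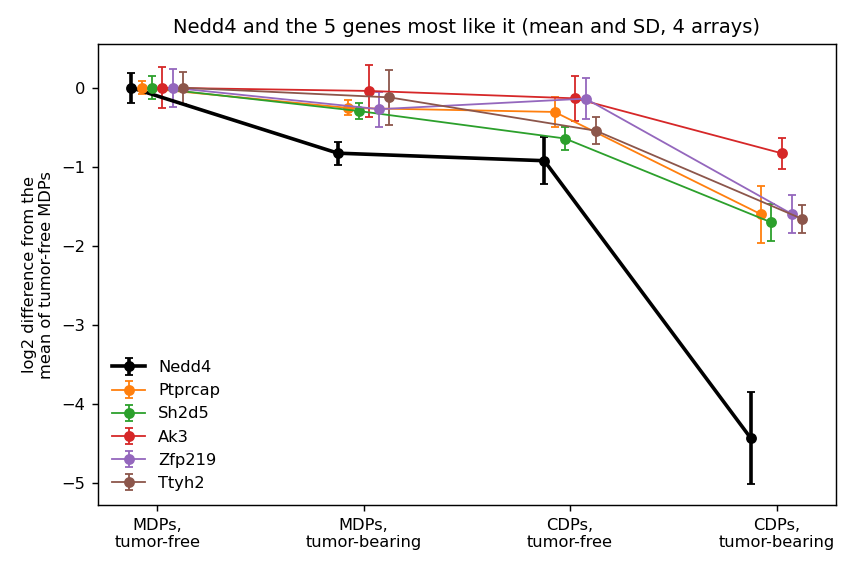
Group means of Nedd4 and of the 5 genes with the most similar pattern, as log2 differences from the mean of tumor-free MDPs (y axis), with bars the SD of 4 arrays. All 6 genes are lowest in tumor-bearing CDPs, which for the 5 follows from their choice by likeness to Nedd4. Nedd4 shows the widest span.

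The other genes of the pathway were read from 4 lists. Of 29 probes for 20 other HECT ligases, 0 were called with tumor in limma in either cell type or for the difference, and 0 at the step in tumor-free mice. In tumor-bearing mice 2 of the 29 were higher in CDPs than in MDPs, near the 3.56% of all probes called higher: Hace1, a ligase for the GTPase Rac1, by 0.71 (SE 0.20, adjusted p = 0.0435), and Hectd3 by 0.59 (SE 0.14, adjusted p = 0.0217). A second Hace1 probe differed by 0.10 and was not called. Both calls sat near the limits, Hace1 being called under 8 of 25 alternatives and Hectd3 under 16 of 25. Of 26 probes for 12 ubiquitin, E1 and E2 genes, 0 were called in any of the 5 comparisons, and the list's medians lay between -0.05 and 0.11. No list was tested as a set.

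Of 19 probes for 15 tested adaptors and regulators, 0 were called with tumor or for the difference. At the step from MDPs to CDPs 2 of the 19 were called in each tumor state, beside 6.1% of all probes without tumor and 7.26% with tumor. Txnip, an arrestin-fold protein and substrate of Itch, was higher in CDPs than in MDPs by 0.81 in tumor-free mice (limma adjusted p = 0.00355) and by 0.66 in tumor-bearing mice (0.0133). Its second probe differed by 0.99 and 0.34 and was not called. The tumor-bearing call was lost without replicate 5 of the tumor-bearing MDPs (0.57, under the fold limit) and when only the groups compared entered the fit (adjusted p = 0.0901). Sgk1, a kinase that inhibits Nedd4l, was higher in CDPs by 1.93 in tumor-free mice (SE 0.36, adjusted p = 0.00532) and differed by 0.90 in tumor-bearing mice (adjusted p = 0.141). Arrb2, a β-arrestin that brings ligases to receptors, was higher in CDPs by 0.70 in tumor-bearing mice (adjusted p = 0.00783, or 0.0901 with only the groups compared). In tumor-free mice Arrb2 differed by 0.46 and was not called (limma adjusted p = 0.0666). The difference between the Arrb2 steps was 0.24 (limma adjusted p = 0.748), so a larger step with tumor was not shown. Smad7, which carries Smurf ligases to the TGF-β receptor, was dim, above background on 1 array in each tumor-free group and on 3 in each tumor-bearing group, and was not called in any comparison.

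Among 41 probes for 26 described substrates, 1 was called with tumor in CDPs, near the 1.8% of all probes, and 0 in MDPs or for the difference. The called probe belonged to Runx2, a transcription factor ubiquitinated by Smurf1, with values of -0.22, 0.26, -0.18 and 0.19 in tumor-free and -2.36, -4.02, -3.50 and -1.93 in tumor-bearing CDPs. The groups were far apart, and the log2 difference was -2.96 (SE 0.37, limma adjusted p = 0.00149), or an adjusted p of 0.0520 when only the CDP groups entered the fit. In MDPs it was -1.13 (adjusted p = 0.347), and the difference between the changes was -1.83 (adjusted p = 0.748). The second Runx2 probe differed by -0.32 with tumor in CDPs and was not called, so the probes of this gene disagreed in size. Junb, a substrate of Itch, was not called in any comparison, with a difference of 0.55 with tumor in CDPs.

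At the step from MDPs to CDPs, 4 of the 41 substrate probes were called in each tumor state. In tumor-free mice CDPs had higher Klf2 (3.91), Runx2 (1.82) and Bmpr2 (0.87) and lower Igf1r (-2.63), in log2 differences with limma adjusted p of 0.000496, 0.00898, 0.0446 and 0.0109. The size for Klf2 rests on dim tumor-free MDP arrays, 3 of 4 above background and the lowest at -7.40, and was 1.70 with normexp background correction. Klf2 is a substrate of Smurf1 and Wwp1, Bmpr2 a BMP receptor and Igf1r a growth factor receptor bound through Grb10. In tumor-bearing mice both probes of Smad3 were lower in CDPs (-1.47 and -1.55, adjusted p = 0.00479 and 0.00819), Bmpr2 was higher by 0.83 (0.0489) and 1 of 3 Plcg1 probes by 1.49 (0.046). The other 2 Plcg1 probes differed by -1.62 and -0.52 and were not called, and the Plcg1 and Bmpr2 calls held under 4 of 24 and 9 of 25 alternatives. The called shares, 4 of 41 in each, stand beside 6.1% and 7.26% of all probes. In tumor-free mice the Smad3 probes differed by -0.63 and -0.90, in the same order, and were not called. For the difference between the steps 0 of the 41 probes were called, so no step was shown to be particular to either tumor state.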

How the data were processed

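Total RNA of sorted MDPs and CDPs was hybridized to 16 one-color (Cy5) arrays. Per the file headers the authors extracted spots with Agilent Feature Extraction 11.5.1.1, and the processed signal is an intensity after background subtraction and detrending within an array. The authors' spot tables also hold mean and median background intensity and flags of 0 or 1 (other values) for background, saturation and outliers. A deposited value table of log2 signals, which the submitters' processing notes tie to limma, was used as an alternative. Probe positions are those of the spot tables (mm9) and were not mapped anew.

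After removal of control spots and of 182 to 289 outlier spots per array, signals were put on the log2 scale, scaled by subtracting each array's 75th percentile and averaged per probe. A probe entered the test where some group had 3 or more of its 4 arrays well above background, which left 27433 of 39429. The number of arrays limits the precision. All 16 arrays entered 1 limma model (limma 3.58.1, R 4.3.3, tables read through data.table version 1.17.8) with a mean per group. Calls needed an FDR under 0.05 (Benjamini-Hochberg, all tested probes) and more than a 1.5-fold difference, the thresholds of the study's methods. Intervals are 95% and come from that fit. For single members an exact permutation p, two-sided, was computed from all 70 relabelings of 4 against 4 arrays. The fit was tested on simulated data.

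The members, the gene lists and the tests were chosen with earlier results of these data known. Every probe of a member is named, led by the probe with the highest mean. From the pathway lists only called genes are named, with Smad7, Sgk1 and Junb whatever their values; some listed genes are not reported here. Deviations of same-numbered samples from their group means correlated at a median r of -0.0052 over 24 pairs (-0.69 to 0.48), and 8 pairs exceeded 0.1. These pairs include samples of different tumor state, which cannot share mice. They therefore cannot decide whether same-numbered MDPs and CDPs came from the same mice, and the tests treat all samples as unpaired. Samples of 1 slide did deviate together, at a median r of 0.263 over 22 pairs with 19 above 0.1, and slide was not a term of the model but an alternative. Alternatives were normexp, quantile or median scaling, other filters, the deposited log2 table, slide or replicate number as a block, only the groups compared, each array left out, another test and the mean over probes.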

Additional observations from a re-analysis of the deposited data

Results flagged for a closer look

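The difference of the tumor changes of Nedd4 between CDPs and MDPs, -2.68 on the log2 scale, is listed because the family was chosen on it, and it was not tested here.

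Among the 56 sets of 4 arrays (14 probes in 4 groups), 7 had 1 array far from the other 3 by Dixon's ratio, the gap to the nearest array divided by the range of the set. Chance alone gives about 1 in 20 such sets. Replicate 5 of tumor-free CDPs was the array in 3 of them: Smurf2 probe 1 at 0.53 against 0.78 to 0.80 (ratio 0.939), Smurf2 probe 3 at -1.25 against -1.84 to -1.75 (0.853) and Wwp1 probe 2 at -4.22 against -3.32 to -3.25 (0.931). Replicate 5 of tumor-bearing CDPs was the array in 2: Smurf1 at 1.24 against 0.60 to 0.66 (0.912), which bears on the Smurf1 call above, and Smurf2 probe 2 at 0.30 against -0.19 to -0.17 (0.955). Wwp1 probe 2 in replicate 3 of tumor-free MDPs was -4.08 against -3.61 to -3.60 (0.972). The dimmer Nedd4l probe in replicate 2 of tumor-bearing CDPs was -4.77 against -7.19 to -6.92 (0.887), where it alone was well above background. No Nedd4, Itch, Wwp2, Ndfip1 or Ndfip2 value was listed this way.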

How the results depend on the processing

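With tumor in CDPs, with tumor in MDPs, for the difference and at the step in tumor-free mice, 0 of the probes of other members were called in limma under every alternative run, and without any 1 array (range 0 to 0). By an unpaired t-test (p under 0.05 and a fold above 1.5), which was not run for the difference, the count was 0 in the other 3 as well. That rule leaves out the FDR limit that the study's methods also set. With the replicate block the counts were 0, 0, 0 and 0, and 1 at the step in tumor-bearing mice, so it changed no call. At that last step the count of 1 became 2 with median scaling and 2 with only probes above background on all arrays (Smurf1 and Wwp1 probe 2). It became 0 with only the groups compared. By the t-test without an FDR limit it was 3 (Smurf1, Wwp1 probe 2 and Ndfip1 probe 2), and by that test after Benjamini-Hochberg it was 0. Leaving out 1 array gave 0 to 3: 0 without replicate 4 of tumor-bearing MDPs, 3 without replicate 3 or 5 of tumor-bearing MDPs or replicate 5 of tumor-free CDPs, and 2 without replicate 4 of tumor-bearing CDPs, while without replicate 5 of tumor-bearing CDPs the 1 called was Wwp1 probe 2. The cause was not tested. Nedd4 kept its sign in all 5 comparisons under every alternative, which only describes the arrays on which it was chosen. Its difference between CDPs and MDPs ranged from -2.72 to -2.30 over settings and from -2.81 to -2.40 without 1 array, and the smallest, -2.30, came with normexp. No called value changed sign (0 reversed), while small differences that were not called did, such as Itch at the step in tumor-bearing mice, from -0.42 to 0.15 with slide as a block. Of the called pathway genes, Plcg1, Hace1 and Bmpr2 were the least stable, called in 4 of 24, 8 of 25 and 9 of 25 alternatives. Over all probes, counts moved by more than 1.5 times as follows. With tumor in CDPs, 494 became 1248 with slide as a block, 56 with only the groups compared, 2081 by the t-test without an FDR limit and 3 after its adjustment. In MDPs, 18 became 44 with slide as a block, 1026 by the t-test and 1 after its adjustment, and 5 to 11 under the other alternatives but median scaling (19). For the difference, 4 became 0 with normexp, quantile scaling or the deposited table, 1 with the strictest filter and 2 with slide as a block. At the step, 1673 became 2925 with slide as a block and 2993 by the t-test in tumor-free mice, and 1993 became 800 with only the groups compared, 4127 by the t-test and 608 after its adjustment in tumor-bearing mice. Leaving out 1 array gave 155 to 581 for tumor in CDPs (155 and 167 without tumor-bearing CDP replicates 4 and 3, and 195, 183, 313 and 204 without tumor-free CDP replicates 2, 3, 4 and 5). It gave 1 to 46 for tumor in MDPs (1 without replicate 4 of either MDP group, 46 without replicate 5 of tumor-bearing MDPs, 4 to 11 without 11 other arrays) and 3 to 7 for the difference (7 without replicate 3 of tumor-free MDPs or replicate 5 of either CDP group). For the step it gave 1117 to 1719 in tumor-free mice and 1127 to 3288 in tumor-bearing mice (1294, 1195 and 3288 without tumor-bearing MDP replicates 2, 4 and 5, and 1127 and 1284 without tumor-bearing CDP replicates 2 and 5). Standard errors for 4 against 4 arrays were largest for Ndfip2 (0.518) and Wwp1 probe 1 (0.439).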
